A study of Mus musculus with 28 samples.

Results

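Transcripts of 32 genes for proteins that the liver releases into the blood were followed across 28 arrays of mouse striatum. The genes were listed by symbol, after values of these same arrays had shown them moving together, and each was read from the transcript cluster that carries its symbol alone (a cluster is the set of probes an array summarises as a gene), taking the cluster of highest mean where there was a choice. By this rule 30 of the 32 were found among 19938 genes, and Gc and C3 had no such cluster. Because the measured values chose the genes, their levels, their shared movement and the contrast of age cohorts that this movement followed are given as descriptions, not as tests.

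Each array held RNA from the left and right striatum of 1 drug-naive mouse. In batch 1 were 6 B6 wildtype littermates (C57BL/6J alleles throughout) and 6 heterozygous congenic mice, which carry 1 A/J copy of the 84 to 96 Mb region on a B6 background and were littermates of the former, all aged 41 to 68 days, with 3 females in each group. In batch 2 were 8 homozygous congenic mice with A/J alleles on both copies, and 8 B6 wildtype controls that were not their littermates, with 4 females in each group. The first 4 homozygous mice were 57 days old and the other 4 were 52 days old, while the first 4 controls were 63 days old and the other 4 were 61 days old. In batch 2 the genotype cannot be told apart from separate breeding or from age, and the age cohort cannot be told apart from the replicate number. All values are deposited log2 expression values, adjusted by the authors for batch with ComBat, which shifts and rescales each gene by batch, so levels are read within a batch. Array medians over all clusters lay between 7.47 and 7.54, in values already normalized across arrays, so they are no check of single arrays. Markers of striatal spiny neurons were high on all 28 arrays, with list means of at least 11.0.

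Hepatocytes make most of the protein dissolved in blood plasma, from albumin and lipoprotein shells to clotting factors and their inhibitors, and they release these proteins steadily through the secretory pathway. Their genes are read at high rates in liver under a small set of factors that includes HNF1, HNF4 and C/EBP. Brain tissue makes few of them in quantity, though the choroid plexus, glia or vessel cells are known to express some, such as vitronectin or ceruloplasmin.

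Promoter sequence was at hand in RefSeq, build GRCm38.p6, for 24 of the 30 genes in 27 windows, each reaching from 250 bases before a gene start to 50 after it. The 3 stretches printed here are those of genes with a match, upstream of the start and with at most 2 mismatches, to the 13-base palindromic consensus of HNF1. They are shown because they put an abundant carrier and a pair of fibrinogen chains side by side. Capitals mark the match, and each stretch holds 30 bases on either side of it, or fewer where the base before the start comes first, as in Alb and Fgb. The Alb stretch is at chr5:90460808-90460869, plus strand, the Fga stretch at chr3:83026073-83026145, plus strand, and the Fgb stretch at chr3:83049864-83049929, minus strand.
Alb: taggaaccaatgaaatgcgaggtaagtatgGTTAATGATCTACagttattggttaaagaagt
Fga: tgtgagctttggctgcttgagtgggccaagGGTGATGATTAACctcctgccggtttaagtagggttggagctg
Fgb: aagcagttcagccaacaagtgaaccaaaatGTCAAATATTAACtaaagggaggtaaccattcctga

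The match began 32 bases before the start in Alb, 50 bases before it in Fga and 36 bases before it in Fgb. The 3 windows are 11.1% of the 27, while 1.24% of all 32851 mouse windows of this length held such a match. The C/EBP motif TTGCGCAA with at most 1 mismatch was found in 9 windows of 8 genes, or 33.3%, against 5.08% of all windows, and Fga and Fgb were among them. The 12-base direct repeat of HNF4, with at most 2 mismatches, was found in 1 window, that of Itih4, or 3.7% against 2.7%. An exact TATAAA was found in 5 windows, or 18.5% against 12.4%. Both strands were searched for each motif, and in Fga and Fgb the C/EBP match, at 135 and 80 bases before the start, did not overlap that of HNF1. These are matches of letters within short windows and describe no binding.

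The 30 transcripts moved as a block in batch 2, while in batch 1 their mean hardly moved. Their mean log2 value per array was lowest at 8.04, 8.05 in the median and highest at 8.12 in the 6 littermates. In the 6 heterozygous mice it was 8.01, 8.06 and 8.13. The batch 1 groups overlapped, and no array of batch 1 stood out.

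In the 8 B6 controls the mean was lowest at 6.90 in control 8, 7.34 in the median and highest at 10.9 in control 1. In the 8 homozygous mice it was lowest at 7.21 in mouse 5, 8.30 in the median and highest at 9.48 in mouse 1. Control 3 at 9.72, control 2 at 8.85 and homozygous mouse 7 at 9.21 were also high. Controls 4 to 8 lay low together, between 6.90 and 7.35, and the homozygous mice filled the space between, so the groups overlapped. In tissue RNA, fewer cells of a type and less RNA per cell cannot be told apart, and this holds for every level given here.

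**Figure D1:**
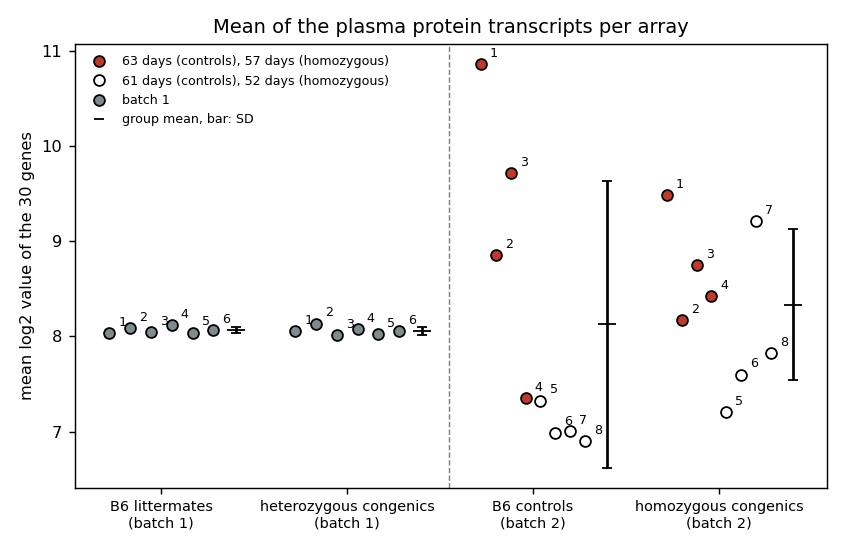
Mean log2 value of the 30 transcripts (vertical axis) on each array, by group (horizontal axis), with the replicate number beside each point and the group mean with its SD at the right of each group. The 12 arrays of batch 1 sit between 8.01 and 8.13, while those of batch 2 run from 6.90 to 10.9, with B6 controls 1, 3 and 2 above the other 5 controls.

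Across the 16 arrays of batch 2 the transcripts shared the arrays at the top of their order, and the order at the bottom varied more. All 30 were highest in control 1, and control 3 was among the top 3 for all 30. Homozygous mouse 1 ranked from 2 to 4, homozygous mouse 7 from 3 to 5 and control 2 from 4 to 6 over the 30 genes. At the other end, control 8 had a median rank of 16 and was the lowest array for 19 of them, with ranks from 12 to 16. The ranks of control 7 ran from 9 to 16 and those of homozygous mouse 5 from 11 to 16. Controls 1 to 3 were above the other 5 controls for 30 of 30. That split follows the values and no label, and its share over all genes was not counted, so nothing is read from it.

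The distance between lowest and highest array in batch 2 was 4.18 in the median of the 30 genes and 0.397 in the median of all genes. In batch 1 it was 0.652 against 0.329. The SD within groups was larger in batch 2 for 30 of 30 genes, by a median factor of 6.27, while over all genes the median factor was 1.05 and 56.9% had the larger SD in batch 2. Since the deposited values had been rescaled by batch, these factors describe the values after that step.

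**Figure D2:**
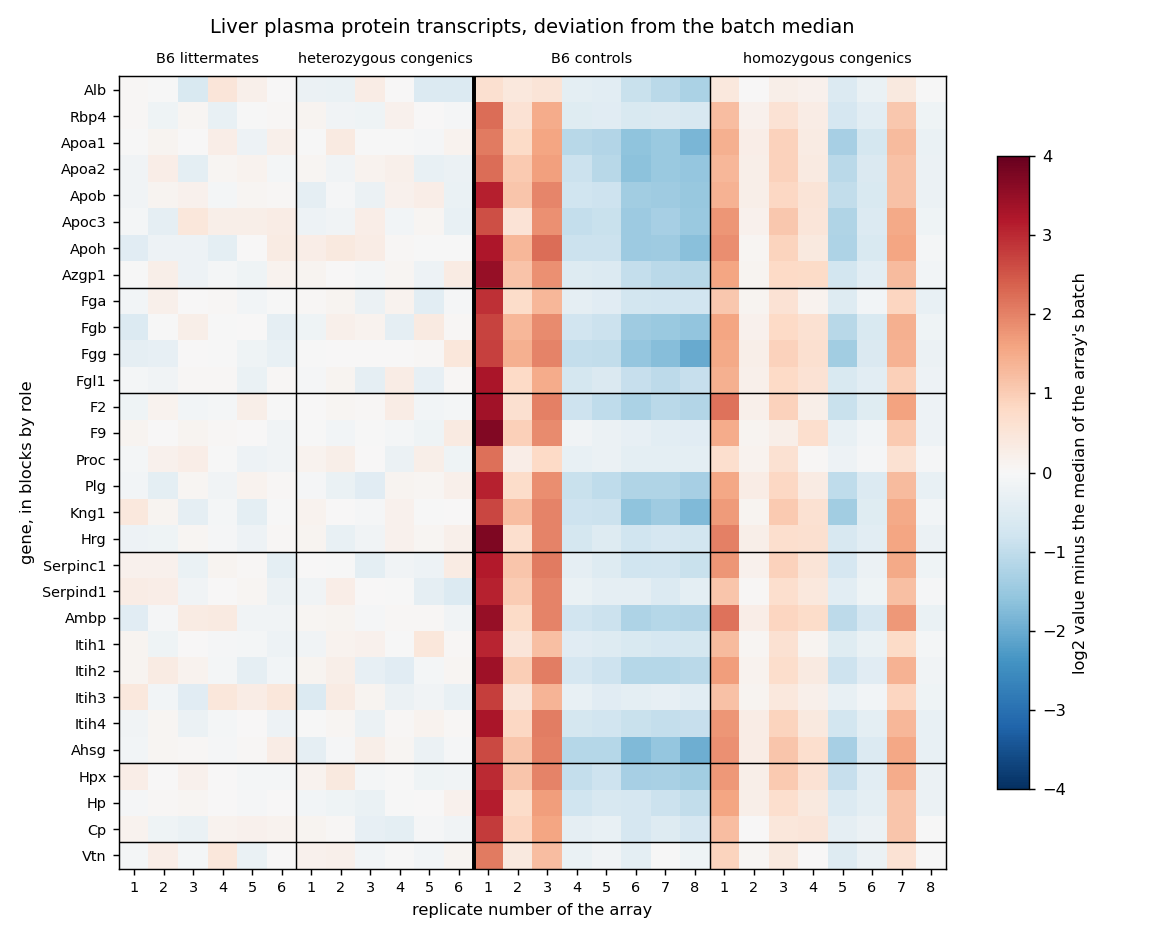
Each row is a transcript, in blocks by role, and each column an array, with the colour giving the log2 value minus the transcript's median over the array's batch. In the 16 batch 2 columns B6 control 1 is the reddest cell of each row and controls 4 to 8 are blue in nearly every row, while the 12 batch 1 columns stay pale.

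Among carriers and lipoproteins, Alb encodes albumin, the main carrier and osmotic protein of plasma. In batch 1 its lowest, median and highest values were 9.58, 10.2 and 10.7 in littermates and 9.64, 9.95 and 10.5 in heterozygous mice. In B6 controls they were 9.49, 10.3 and 11.4, and in homozygous mice 10.2, 10.9 and 11.2. The homozygous values lay inside the span of the controls. Alb differed from the other 29 in its narrow range, 1.91 in batch 2, the smallest of the 30, and in its wide range in batch 1, 1.11, the largest of the 30. Its within-group SD grew by a factor of 1.71 only, the smallest of all.

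Apoh, beta-2-glycoprotein I, a phospholipid-binding protein of plasma, had the widest range in batch 2, 4.90. Its lowest, median and highest values were 5.87, 6.69 and 10.8 in controls and 6.32, 7.78 and 9.41 in homozygous mice. Controls 4 to 8 were at most 6.69 and controls 1 to 3 at least 8.86, with the homozygous mice between and beside them. Apoa1, the main protein of HDL, spanned 8.11 to 12.01 in controls and 8.61 to 11.4 in homozygous mice.

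The other carriers moved over comparable spans in batch 2. The range was 3.89 for Apoa2, the second HDL protein, 4.07 for Apoc3, an inhibitor of triglyceride clearance, and 4.64 for Apob, the scaffold of VLDL and LDL. It was 4.61 for Azgp1, zinc-alpha-2-glycoprotein. Rbp4, the plasma carrier of retinol, had a smaller range of 2.89, with homozygous mouse 5 as its lowest array.

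The fibrinogen chains are assembled from Fga, Fgb and Fgg into the precursor of fibrin. Fgg, the gamma chain, was lowest at 6.47, 7.53 in the median and highest at 11.2 in controls, and 7.11, 8.93 and 10.0 in homozygous mice. Fgb ranged over 4.31 and Fga, the alpha chain, over 3.71 in batch 2. Fgl1, a fibrinogen-like protein of liver, ranged over 4.32. Fga, whose promoter stretch is shown above, gave 6.25, 6.62 and 9.96 in controls and 6.51, 7.16 and 8.12 in homozygous mice. Control 1 thus stood 1.59 above control 3 for Fga, but 0.739 for Fgg and 0.814 for Fgb. The gaps differed although the chains are made for 1 protein complex and their genes lie together on chromosome 3.

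Among coagulation and fibrinolysis factors, F2 encodes prothrombin. Its values were 6.23, 6.57 and 10.8 in controls and 6.61, 7.72 and 9.66 in homozygous mice. Within batch 1 all arrays lay between 7.41 and 7.89, and levels are not compared between batches. F9, factor IX, was the dimmest of the 30, from 4.60 to 8.74 in batch 2. Proc, protein C, an anticoagulant protease, had a range of 2.60, with 8.87 in control 1, 7.46 in control 3 and 6.39 in the control median. Plg, plasminogen, ranged over 4.43, Kng1, kininogen, over 4.46, and Hrg, histidine-rich glycoprotein, over 4.53.

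Among protease inhibitors, Serpinc1 encodes antithrombin. Its lowest, median and highest values were 6.39, 6.85 and 10.5 in controls and 6.61, 7.64 and 9.06 in homozygous mice. Serpind1, heparin cofactor II, ranged over 3.62, and Ambp, the precursor of alpha-1-microglobulin and bikunin, over 4.71. Of the inter-alpha-trypsin inhibitor heavy chains, Itih2 and Itih4 ranged over 4.53 and 4.22, and Itih1 and Itih3 over 3.75 and 3.20. Ahsg, fetuin-A, an inhibitor of calcification, ranged over 4.60, from 6.86 in control 8 to 11.5 in control 1.

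Hpx, hemopexin, which binds free haem, gave 7.24, 7.75 and 11.6 in controls and 7.72, 9.05 and 10.4 in homozygous mice. Hp, haptoglobin, which binds free haemoglobin, ranged over 4.12, and Cp, the copper carrier ceruloplasmin, over 3.46. Hp had the largest growth of within-group SD, by a factor of 10.3, from 0.116 in batch 1 to 1.20 in batch 2. Vtn, vitronectin, an adhesion protein, was bright on every array of the study, from 9.78 to 12.4, and its batch 2 range was 2.58. The least mobile transcripts of batch 2 were Alb, Vtn and Proc, and then Rbp4. In all, 29 of the 30 had a range above 2 and 26 above 3, ranges that 358 and 186 of the 19908 genes outside the list also had.

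The distance between the array highest in all 30 transcripts and the one that came next in their mean depended on the transcript. Control 1 exceeded control 3 by a median of 1.19, from 0.119 for Alb to 1.85 for Itih1. The largest gaps were those of Itih1, F9 at 1.81, Fgl1 at 1.78 and Hrg at 1.75, all transcripts of low value in control 3, from 6.93 for F9 to 8.65 for Fgl1. The smallest gaps were those of Alb, Apoa1 at 0.488 and Apoa2 at 0.608, whose values in control 3 were 11.3, 11.5 and 11.2. Vtn, at 11.5 in control 3, had a gap of 0.836. Over the 30 genes the gap went with the value in control 3 with r = -0.901, where control 3 enters both measures and all points share the same 2 arrays. No level is compared between genes per length here, since array values carry each probe set's own brightness.

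**Figure D3:**
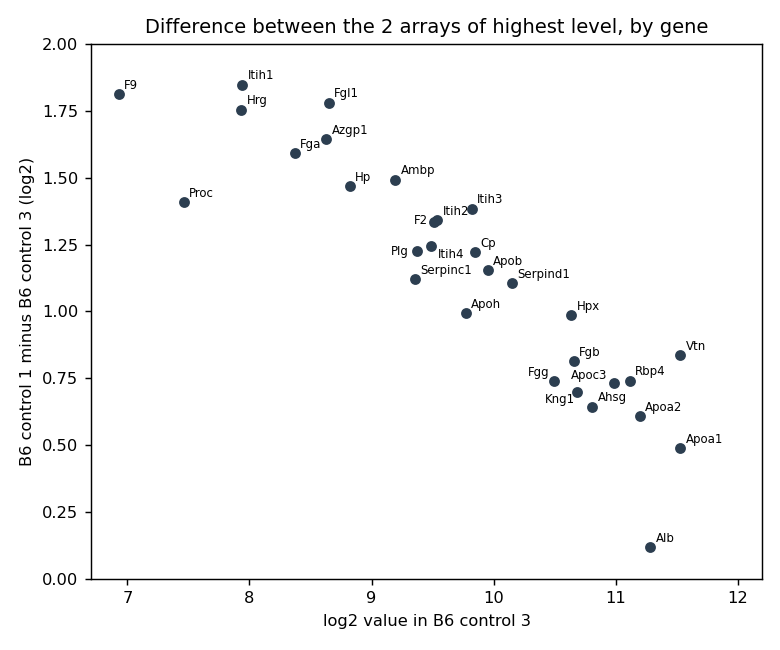
Log2 difference between B6 control 1 and B6 control 3 (vertical axis) against the log2 value in control 3 (horizontal axis), 1 labelled point per transcript. The gap runs from 0.119 for Alb at the lower right to 1.85 for Itih1 at the upper left.

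Each transcript was set against the mean of the other 29 to describe how closely they tracked. In batch 2 the median Pearson r was 0.986 over 16 arrays, from 0.90 for Alb to 0.998 for Plg and Itih2. It was 0.989 without controls 1 and 3, the arrays farthest from the median, 0.990 without control 1, and 0.990 for deviations from the group means. The median was 0.992 within the 8 controls and 0.988 within the 8 homozygous mice. Spearman's rho had a median of 0.993, with Alb at 0.994 and Vtn lowest at 0.891. Alb therefore kept the shared order of arrays with a flatter response, a slope of 0.453 per unit of the mean of the others. Proc at 0.536 and Vtn at 0.539 were also flat, and Apoh at 1.29 and Ahsg at 1.27 were the steepest.

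In batch 1 the median r was -0.037 over 12 arrays, from -0.534 for Rbp4 to 0.744 for Apoa1. Vtn at 0.699, Fga at 0.647 and Fgl1 at 0.490 were the next highest after Apoa1. No transcript of batch 1 had an r above 0.9, against 30 of 30 in batch 2.

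**Figure D4:**
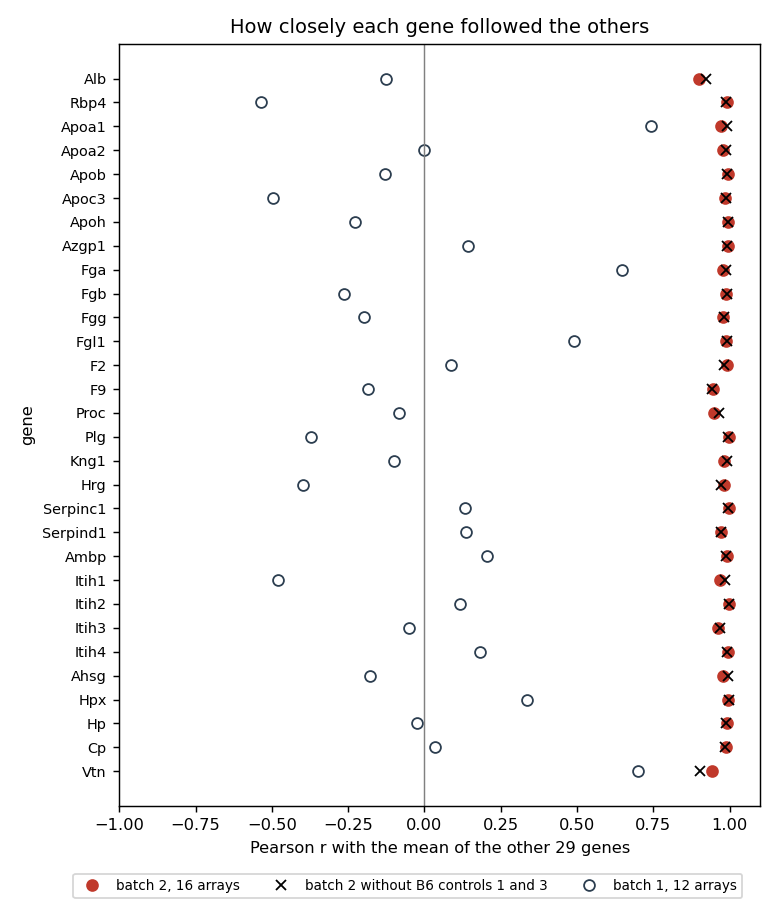
Pearson r of each transcript with the mean of the other 29 (horizontal axis), 1 row per gene, in batch 2 (filled), in batch 2 without B6 controls 1 and 3 (crosses) and in batch 1 (open). The batch 2 points lie between 0.90 and 0.998 and those of batch 1 are spread from -0.534 to 0.744.

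The same held for pairs. Of 435 pairs of transcripts, 395 had r above 0.9 in batch 2, with a median of 0.972, and 0 in batch 1, with a median of -0.006. The closest pairs were Apoa1 with Ahsg at 0.998, and Fgb with Fgg and Serpinc1 with Itih2, both at 0.997. The most distant were Alb with Vtn at 0.732, Alb with F9 at 0.769 and Alb with Itih3 at 0.777. Some members are neighbours in the GRCm38.p6 gene order. Apoa1 and Apoc3 lie side by side on chromosome 9, the fibrinogen genes on chromosome 3, Itih1, Itih3 and Itih4 on chromosome 14, and Kng1, Hrg and Ahsg near one another on chromosome 16. The closest pair, Apoa1 and Ahsg, is on different chromosomes.

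Beyond the list, 341 of 19908 genes, or 1.71%, had r above 0.9 with the mean of the 30 in batch 2, and 0 had it in batch 1. Without the 2 farthest arrays the count was 344. The 10 genes most like the mean over the 16 arrays were Gsta3 at 0.999, Cps1, Mug1 and Mat1a at 0.996, and Mgst1, Slc27a2, Slc38a4, Ces3a, Cyp2f2 and Hsd17b6 at 0.995. Without control 1 these stayed between 0.992 and 0.998. Cps1, the first enzyme of the urea cycle, ran from 6.63 to 11.3, and Mat1a, the liver's S-adenosylmethionine synthetase, from 5.82 to 10.7. At the opposite end were Atp6v1e1 at -0.928, a proton pump subunit, Ammecr1 at -0.919, Brinp1 at -0.915, Trim8 at -0.914 and Gde1 at -0.909, whose ranges were at most 0.600. All of these are descriptions over arrays that share controls 1 and 3 as their extremes.

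Other secreted plasma protein genes moved with the 30. Of 62 measured, 46 had r above 0.9, with a median of 0.947, led by Mug1, a murinoglobulin, and followed by Serpina1d at 0.994 and Apoc1, Orm1 and Pon1 at 0.991 and Apof at 0.990. Pon1, paraoxonase, ran from 6.00 to 11.1. Of the hepatocyte enzymes, which stay in the cell, 26 of 29 had r above 0.9, with a median of 0.984. Beside Cps1, Mat1a and Cyp2f2 these included Hpd and Hgd of tyrosine breakdown, both at 0.995.

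Hepatocyte transcription factors were measured at lower spans. Of 11, 2 had r above 0.9, Nr1i3 at 0.922 and Hnf4a at 0.917, with Nr1h4, the bile acid receptor, next at 0.90 and a median of 0.882. Hnf4a ran from 7.28 to 10.1, where control 1 was highest and the median of the other 15 arrays was 7.55.

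Markers of Kupffer cells and of liver sinusoidal endothelium were also highest in control 1, all 5 of each. This was not particular to liver cells, and the share over all genes was not counted. Control 1 was also highest of batch 2 for Alas2 and Slc4a1 of blood cells, Prss2 and Cela1 of pancreas, and Pecam1 and Abcc9 of endothelium and pericytes. For Kupffer cells, the macrophages of liver, the median r was 0.868 over 5 genes, with Vsig4 at 0.946, Cd5l at 0.895 and Clec4f at 0.868, and with Timd4 at 0.725 and Marco at 0.346 lower. Without control 1, Timd4 was at 0.513 and Marco at 0.019. Vsig4 was 8.20 in control 1 against a median of 4.82 in the other 15 arrays. For liver sinusoidal endothelium the median r was 0.889 over 5 genes, led by Clec4g at 0.973, Oit3 at 0.919 and Fcgr2b at 0.889. Stab2 at 0.881 and Lyve1 at 0.720 were lower, and without control 1 they were at 0.918 and 0.511. For bile duct cells the median was 0.364 over 3 genes, with Epcam at 0.633, Krt19 at 0.364 and Krt7 at 0.109.

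Organs that share some plasma protein genes gave lower values. Of 11 choroid plexus genes, Ttr, transthyretin, which liver also secretes, had r of 0.965 and ran from 8.42 to 12.8, and Aqp1 had 0.909, followed by Calml4 at 0.372. The median of that list was 0.210. Of 6 intestinal genes, Fabp2, a fatty acid binding protein, at 0.958 and Apoa4, which mouse liver also expresses, at 0.909 were high and Vil1 was at 0.190. The median r was 0.150 for kidney, led by Umod, Slc12a1 and Miox, 0.286 for pancreas, led by Prss2, Ins2 and Cela1, and 0.026 for skeletal muscle, led by Myh1, Tnni2 and Atp2a1. For blood cells Alas2 was at 0.691 and Slc4a1 at 0.407.

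Markers of brain cells moved less than the 30 transcripts. Median batch 2 ranges were 0.871 for oligodendrocytes, 0.668 for spiny neurons, 0.559 for neurons and 0.517 for astrocytes. They were 0.389 for endothelium and pericytes and 0.364 for microglia, beside 0.397 for all genes and 4.18 for the 30. The sign of the list median of r rested on control 1 for spiny neurons, for microglia, and for endothelium and pericytes. The medians of neurons, astrocytes and oligodendrocytes stayed negative without it. The median r was -0.826 for 7 neuronal genes, -0.730 without control 1 and -0.686 without controls 1 and 3, with Eno2 at -0.568, Stmn2 at -0.727 and Rbfox3 at -0.797 the least negative. For spiny neurons it was -0.220, and it turned to 0.310 without control 1 and 0.259 without controls 1 and 3, with Pdyn, Ptpn5 and Drd1 the highest. The mean of 15 spiny neuron genes was 11.0 in control 1 and 11.3 to 11.6 on the other 15 arrays of batch 2. For oligodendrocytes the median was -0.547, -0.078 without control 1 and -0.303 without controls 1 and 3, with Mal, Mag and Mbp the highest. For astrocytes it was -0.639, where Aldh1l1, a folate enzyme that liver also makes, was at 0.856 and Gfap at -0.412. That median was -0.292 without control 1 and -0.465 without controls 1 and 3. For microglia the median was -0.206, led by C1qa, Csf1r and Tmem119, and turned to 0.233 without control 1 and 0.188 without controls 1 and 3. For endothelium and pericytes it was -0.173, led by Pecam1, Abcc9 and Kcnj8. It turned to 0.155 without control 1 and was -0.015 without controls 1 and 3. The part of these cell types in the movement of the 30 transcripts was not tested.

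**Figure D5:**
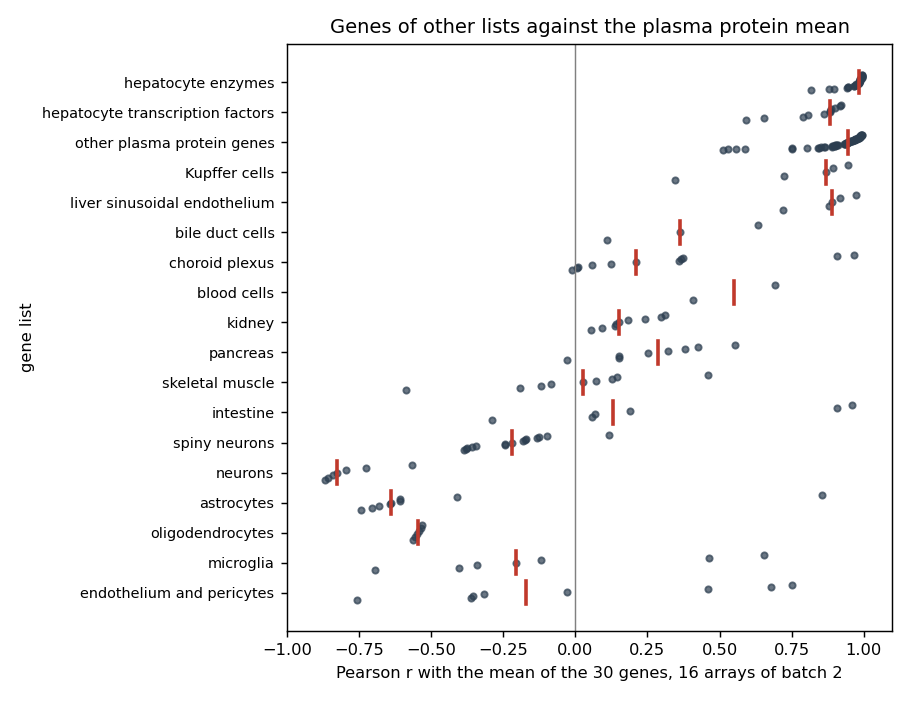
Pearson r of each gene (points) with the mean of the 30 plasma protein transcripts over the 16 arrays of batch 2 (horizontal axis), by gene list (vertical axis), with the list median as a red bar. Hepatocyte enzymes lie at the right with a median of 0.984, and neuronal genes at the left with a median of -0.826. The medians were 0.150 for kidney, 0.286 for pancreas and 0.026 for muscle.

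The design asks which transcripts differ with the A/J region, and none of the 30 was called for it. In limma fits over all 19938 genes, with Benjamini-Hochberg adjusted p under 0.05 as a call, 0 of 30 differed between heterozygous mice and littermates, where 0% of all genes were called. The differences ran from -0.30 for Itih3 to 0.31 for Apoh, 15 up and 15 down, with a median of -0.002 against 0.002 over all genes. At an unadjusted p under 0.05 the count was 0 of 30, against 3.69% of all genes. That fit pools the spread of both batches, which for these genes was wider in batch 2. With batch 1 arrays alone 0 of 30 were called and 3 had an unadjusted p under 0.05, against 4.4% of all genes, namely Apoh at 0.31, Fgg at 0.29 and Itih1 at 0.18, all higher in heterozygous mice and singled out after their values were seen.

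Between homozygous mice and B6 controls 0 of 30 were called, against 0.00502% of all genes, in the same fit that pools both batches. The median difference was 0.17 against 0.02 over all genes, with 24 of the 30 above 0 and values from -0.25 for F9 to 0.64 for Ahsg. At an unadjusted p under 0.05 the count was again 0, against 6.23% of all genes. The size of these differences rested on single arrays. Without control 1 all 30 were above 0, with a median of 0.61, 0 were called and 6 had an unadjusted p under 0.05, against 6.23% of all genes in that setting. The 30 were chosen for moving together, so those 6 are not separate observations, and nothing is read from their count. Without homozygous mouse 1 the median was 0.003 and 15 were above 0, and without control 6 it was also 0.003.

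The intervals of these differences were wide. They come from the fit that pools the spread of both batches, so they understate the spread of batch 2. The within-group SD was 0.588 for Alb and 1.40 for Hpx in batch 2, against 0.343 and 0.183 in batch 1. For Alb the homozygous minus control difference was 0.36 (SE 0.24, 95% interval -0.12 to 0.85, limma adjusted p 0.835), and for Hpx 0.41 (SE 0.51, interval -0.63 to 1.45, limma adjusted p 0.905). For F2 it was 0.37 (SE 0.52, interval -0.70 to 1.44), for Serpinc1 0.10 (SE 0.46, interval -0.84 to 1.04) and for Fga -0.01 (SE 0.37, interval -0.77 to 0.75). For Vtn it was -0.19 (SE 0.26, interval -0.72 to 0.34). Each interval holds 0 and also changes of more than 0.3 in at least 1 direction.

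Over all 28 arrays, with batch and sex in the model, 0 of 30 differed between carriers and B6 mice, against 0.0201% of all genes, with a median of 0.11, and 0 of 30 had an unadjusted p under 0.05, against 5.3% of all genes. Leaving out single arrays moved that median from 0.02, without control 6 or homozygous mouse 1, to 0.35, without control 1. The authors' deposited table gives p-values for its own comparison of 14 against 14 arrays, and for the 30 genes they lay between 0.373 for Apoa1 and 0.904 for Serpinc1. The homozygous effect did not differ from the heterozygous effect in any of the 30 past the threshold, against 0% of all genes, with a median difference of 0.18, and 0 did so at an unadjusted p under 0.05, against 5.07% of all genes. That median ran from 0.001 without control 6 to 0.59 without control 1. No transcript separated any pair of genotypes without overlap, where the share of all genes was 0.01% for homozygous mice all above controls, 0.0903% for the reverse, 0.0953% for heterozygous mice all above littermates and 0.0602% for the reverse. Of the 30, Vtn and Apoh lie on chromosome 11, the chromosome of the A/J region, and by gene order Vtn is before it and Apoh after it.

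For sex, 0 of 30 were called, against 0.0552% of all genes, and 0 of 30 had an unadjusted p under 0.05, against 7.34%. The median female minus male difference was 0.09 with 24 above 0, and without control 1, a female, it was -0.15 with all 30 below 0. Array weights gave -0.13, also with all 30 below 0. With batch 1 arrays alone 0 of 30 were called and 5 had an unadjusted p under 0.05, against 5.7% of all genes. They were Fgb at -0.38, Proc at -0.27 and Ambp at -0.25, lower in females, and Plg at 0.23 and Rbp4 at 0.16, higher in females, again singled out after their values were seen.

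The cohorts of batch 2 lay apart in the B6 controls. Mean values of the 30 transcripts were 10.9, 8.85, 9.72 and 7.35 in the 4 controls aged 63 days and 7.32, 6.99, 7.01 and 6.90 in the 4 aged 61 days. Control 4, of the older cohort, was next to the younger cohort. All 63-day values lay above all 61-day values for 19 of 30 transcripts, against 3.25% of all genes. Since the genes were chosen from the values of these arrays, the counts for this contrast are descriptions, and nothing is read from them.

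By gene, Alb was 11.4, 11.2, 11.3 and 10.3 at 63 days and 10.3, 9.85, 9.66 and 9.49 at 61 days. F2 was 10.8, 8.12, 9.51 and 6.66 at 63 days and 6.49, 6.23, 6.40 and 6.31 at 61 days. Vtn was 12.4, 10.7, 11.5 and 10.0 at 63 days and 10.1, 9.90, 10.3 and 10.1 at 61 days. Alb and F2 separated the cohorts, with control 4 the lowest of the older for both, and Vtn overlapped through control 4.

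Fitted with limma over all 28 arrays, 26 of 30 passed the threshold with higher values at 63 days, against 0.988% of all genes, which is no test of genes chosen from these values, and the 4 that did not were Hrg, Itih3, Proc and Vtn. The log2 differences were above 0 for all 30, from 1.04 for Vtn to 2.86 for Fgg, with a median of 2.27. That fit pools the spread of both batches, and in batch 2 alone 0 of 30 passed. None passed without control 1, 3, 5, 6, 7 or 8, where the median difference was 1.70 without control 1 and 2.02 without control 3. All 30 passed without control 2, along with 811 of all 19938 genes, or without control 4, along with 2218, against 197 with all arrays.

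The homozygous cohorts overlapped. Mean values were 9.48, 8.17, 8.75 and 8.43 at 57 days and 7.21, 7.60, 9.21 and 7.83 at 52 days, and mouse 7 was the one of the younger cohort that lay high. All 30 differences were above 0, with a median of 0.83, from 0.29 for Proc to 1.14 for Ahsg, and 0 were called, against 0% of all genes. At an unadjusted p under 0.05 the count was 2, Ahsg and Apoa1, against 1.88% of all genes. That fit, too, pools the spread of both batches. No transcript had all 57-day values above all 52-day values, against 0.918% of all genes. Without mouse 7 the median difference was 1.32 and 24 of the 30 had an unadjusted p under 0.05, against 2.27% of all genes in that setting, still with 0 called. Mouse 7 was singled out after its values were seen, and the 30 were chosen for moving together. Those 24 are thus not separate observations, and nothing is read from their count.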

How the data were processed

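RNA of left and right striatum, 1 mouse per array, was measured on 28 Mouse Gene 1.0 ST arrays. The deposited log2 values were summarised by RMA, for which the submitters' processing notes name Affymetrix Expression Console, and the authors adjusted them for batch with ComBat, per the deposited notes. Per those notes, probes over SNPs in the A/J region were masked on build 37. Each cluster also has a deposited p-value from a t-test in which the authors set 14 B6 arrays against 14 of congenic mice. Both deposited tables of log2 values differed by at most 0.0.

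Of 35556 clusters, 21789 carry 1 gene symbol in the platform annotation, 1621 several and 12146 none. Genes were read from the single-symbol cluster of highest mean. limma 3.58.1 (lmFit, eBayes, 2-sided) in R 4.3.3 was fitted to all 19938 genes with the 4 group means (split by age in batch 2 for age comparisons) and sex, or with batch and sex for carriers against B6, and Benjamini-Hochberg adjustment. The fits were tested on simulated data. The number of arrays limits the precision. No label says that RNA was repeated from a mouse, and p-values measure the spread between these arrays. The alternatives tried covered the sex and age terms, array weights, the variance prior, normalization, low genes, cluster choice, the batches alone, a replicate block and leaving out each array.

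The genes and lists were chosen with earlier results of these data known. Outside the list, the text names the 10 genes of highest and the 5 of lowest r with the mean of the 30. It also names up to 3 per marker list, or all 5 for Kupffer cells and for liver sinusoidal endothelium. For hepatocyte enzymes and other plasma protein genes it names up to 6. Alb, Fga, F2, Serpinc1, Hpx and Vtn, the first measured gene of each role, carry an SE and interval for homozygous mice against controls. An adjusted p is printed for Alb and Hpx.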

Additional observations from a re-analysis of the deposited data

Results flagged for a closer look

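Of 124 sets of values of 1 gene in 1 group, 3 held an array far from the rest, where chance alone gives about 1 such set in 20. Fgg was 8.81 in heterozygous congenic 6, with the next highest of that group at 8.41. F9 was 5.82 in the same array, against 5.45 in the next. Proc was 8.87 in B6 control 1, against 7.46 in the next highest control.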

How the results depend on the processing

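Of the 7 comparisons tested, the 6 other than 63 against 61 days had 0 of the 30 transcripts called under 232 of 232 alternatives. For 63 against 61 days the count of 26 fell to 0 with a variance prior with trend and robust fitting and to 0 with batch 2 arrays alone, and ran from 0 to 30 as single arrays were left out. Called genes of all 19938 numbered 197 there, 432 with array weights, and 0 with the trend prior or batch 2 alone. With array weights all 30 homozygous minus control differences were above 0, and 16 had an unadjusted p under 0.05, against 8.74% of all genes. For carriers against B6 mice the weights gave a median of 0.43 with 2 such transcripts, against 7.61% of all genes, and for the difference of the genotype effects a median of 0.64 with 1, against 5.65%. The 30 were chosen for moving together, so transcripts in these counts are not separate observations, and nothing is read from the counts. Uncalled differences between homozygous mice and controls changed sign for Fga (0.126 with age as a covariate, 0.386 with array weights, -0.167 to 0.378 leaving out single arrays), Vtn (0.095 with array weights, -0.308 to 0.065) and Serpinc1 (-0.084 to 0.508). The cause was not tested. The median r with the other transcripts was -0.037 in batch 1 arrays. Group means of the 30 moved within 8.05 to 8.07 for littermates, 8.04 to 8.07 for heterozygous mice, 7.74 to 8.30 for controls and 8.17 to 8.50 for homozygous mice as single arrays were left out.

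Whether replicate numbers of the genotype groups pair the arrays was not settled. Of 14 same-numbered pairs 9 correlated above 0.1, with r from -0.521 to 0.691, and 5 arrays were closest to their own number. Same-numbered arrays of batch 2 share their sex, which was not removed from these correlations. With the replicate number as a block, 0 of the 30 were called in the 4 genotype comparisons, and 1, 0, 3 and 1 of all genes. No paired analysis was possible for sex or age because both follow the number in batch 2.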
